A study of Mus musculus with 8 samples.

Results

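Transcripts of the proteasome, the barrel-shaped protease that degrades proteins tagged with ubiquitin, were followed across 8 RNA-seq libraries of mouse CD4 T cells. Members were genes whose symbol is Psm, then a letter from a to g, then a number, which took 50 of the 25124 genes of the deposited table. Of these, 49 encode subunits, activators, an inhibitor or assembly factors of the proteasome. The remaining gene, Psmc3ip, encodes a partner of meiotic recombination enzymes and was matched by its symbol only. All 50 passed edgeR's filter on low counts among 19146 genes tested, though Psma8 and Psmb11 did so at counts near or below those of background.

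The cells came from spleens of mice that carried a KLF2 reporter (GFP) and a FOXP3 reporter (RFP), and all 4 groups shared both reporters. CD4 T cells that were CD44hi, the surface state of antigen-experienced cells, and negative for FOXP3, the factor of regulatory T cells, were sorted by the KLF2 reporter. KLF2 is a transcription factor of quiescent T cells. Stimulated KLF2+ cells (replicates 1 and 2) and stimulated KLF2- cells (replicates 3 and 4) received 2.5 µg/mL of anti-CD3 and 1.25 µg/mL of anti-CD28, antibodies that engage the T cell receptor and its costimulatory receptor, for 48 h. Unstimulated KLF2+ cells (replicates 1 and 2) and unstimulated KLF2- cells (replicates 3 and 4) were kept for the same 48 h without the antibodies. The sources used here give no age, sex or strain of the mice. Nothing in the labels says that replicates were separate animals or cultures, so a p-value here reflects only how these samples scatter, and that scatter can be technical.

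The 20S core of the proteasome stacks rings of alpha subunits, which form the gate, on rings of beta subunits, some of which cut the substrate. The 19S cap binds ubiquitin chains, removes them and unfolds the substrate with a ring of ATPases. In lymphocytes, and in many cells after interferon gamma, Psmb8, Psmb9 and Psmb10 take the places of the constitutive catalytic subunits Psmb5, Psmb6 and Psmb7, which gives the immunoproteasome, known for making peptides that MHC class I presents. The PA28 and PA200 activators are alternative caps, and chaperones build the core and the cap without staying in the finished particle.

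Libraries held 33.9 M to 45.6 M aligned reads (M, mega), of which 7.96% to 80.3% lay in exons. Replicates 1 and 2 of KLF2+ cells had 21.0 M and 36.6 M exon reads when stimulated and 8.27 M and 17.8 M when unstimulated. Replicates 3 and 4 of KLF2- cells had 4.53 M and 2.99 M when stimulated and 7.34 M and 8.62 M when unstimulated. Reads over olfactory and vomeronasal receptor genes, which belong to sensory neurons, gave a background density equal to 0.401% to 20.1% of exon reads, highest in stimulated KLF2- replicate 4. That library stood apart from its partner also in markers of dividing cells (6 genes, Mki67, Top2a, Birc5, Ccnb1, Mcm5 and Pcna), which summed to 183 CPM there and 783 CPM in replicate 3. Levels are given as CPM, exon reads per M scaled with edgeR's TMM factors (0.626 to 1.54). The factors were lowest in stimulated KLF2+ (0.630 and 0.626) and highest in stimulated KLF2- libraries (1.34 and 1.54). Fold changes are also given after subtracting the background density from each gene's counts, with TMM factors from genes of at least 50 CPM. Those factors ran from 0.955 to 1.04. In stimulated KLF2+ libraries the T cell markers summed to 6755 and 7132 CPM before and 4499 and 4683 CPM after correction. In stimulated KLF2- libraries they summed to 2699 and 2620 CPM before and 3871 and 4955 CPM after it. The T cell markers summed to 2620 to 7629 CPM in every library, with Cd3e at 298 to 938 CPM and Cd4 at 475 to 1046 CPM, against 0.113 to 2.42 CPM for Cd8a and 11.2 to 24.1 CPM for Cd8b1, the 2 CD8 T cell markers.

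Psmb8, an immunoproteasome catalytic gene, was the most abundant member per length of exon. It averaged 596 CPM per kb over the 4 groups, followed by Psme2 (500 CPM per kb) and Psme1 (393 CPM per kb), the PA28 activator genes, and by Psma2 (389 CPM per kb). The other immunoproteasome catalytic genes were lower, with Psmb9 at 296 CPM per kb and Psmb10 at 142 CPM per kb. The alpha ring had a median of 226 CPM per kb and the structural beta subunits, from Psmb4 (154 CPM per kb) to Psmb3 (364 CPM per kb), one of 278 CPM per kb. The 19S ATPases lay between Psmc6 (91.5 CPM per kb) and Psmc1 (185 CPM per kb), and the 19S non-ATPase subunits between Psmd1 (74.9 CPM per kb), the large scaffold, and Psmd4 (177 CPM per kb), a ubiquitin receptor. Chaperones were less abundant, from Psmg3 (34.8 CPM per kb) to Psmg2 (47.9 CPM per kb) for the 20S core and from Psmd9 (16.3 CPM per kb) to Psmd5 (75.4 CPM per kb) for the 19S cap. Psme4, the gene of PA200, averaged 5.88 CPM per kb and Psmf1, the gene of the inhibitor PI31, 21.9 CPM per kb.

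The germ cell and thymus forms were near or below background. Psma8, an alpha subunit of the testis, held 4 and 8.5 reads in stimulated KLF2+ libraries, 6 and 17 in unstimulated KLF2+, 12 and 15 in stimulated KLF2-, and 1.5 and 11 in unstimulated KLF2- libraries, where the background density alone predicted 3.64 to 15.1 reads. Psmb11, the catalytic subunit of the thymoproteasome, held 0.5 to 10 reads per library, fewer than the 9.17 to 38.1 that the background predicted in each. After background correction both genes were filtered out, which left 48 members among 15292 genes tested. Psme2b is a near copy of Psme2, so the reads assigned to each of them are uncertain.

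The immunoproteasome gene Psmb8 (mm10 chromosome 17, 34198195 to 34201454, plus strand) stood at 1338 and 1298 CPM in stimulated KLF2+, 541 and 803 CPM in unstimulated KLF2+, 453 and 257 CPM in stimulated KLF2-, and 528 and 580 CPM in unstimulated KLF2- libraries. Psmb9 (chromosome 17, 34182099 to 34187330, minus strand) stood at 487 and 466 CPM, 166 and 228 CPM, 122 and 78.4 CPM, and 166 and 174 CPM in the same order of groups. Psmb10 (chromosome 8, 105935728 to 105938392, minus strand) stood at 329 and 302 CPM in stimulated KLF2+, 164 and 223 CPM in unstimulated KLF2+, 108 and 60.6 CPM in stimulated KLF2-, and 123 and 122 CPM in unstimulated KLF2- libraries. For each of the 3 genes both stimulated KLF2+ libraries were above the other 6. Both stimulated KLF2- libraries were below both unstimulated KLF2- libraries, as for 30.2% of all genes tested. After background correction this held for Psmb9 only, while the 2 groups of KLF2- libraries overlapped for Psmb8 and Psmb10.

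The constitutive partner Psmb5 (chromosome 14, 54614120 to 54617995, minus strand) stood at 432 and 416 CPM in stimulated KLF2+, 132 and 196 CPM in unstimulated KLF2+, 96.6 and 52.3 CPM in stimulated KLF2-, and 106 and 95.8 CPM in unstimulated KLF2- libraries. Psmb6 (chromosome 11, 70525357 to 70527858, plus strand) stood at 474 and 504 CPM, 156 and 249 CPM, 143 and 72.8 CPM, and 124 and 140 CPM in the same order. Psmb7 (chromosome 2, 38588046 to 38643906, minus strand) stood at 268 and 259 CPM in stimulated KLF2+, 65.7 and 91.8 CPM in unstimulated KLF2+, 63.0 and 37 CPM in stimulated KLF2-, and 58.1 and 61.1 CPM in unstimulated KLF2- libraries. Here too the stimulated KLF2+ libraries were above all others, while the 2 stimulated KLF2- libraries fell on both sides of the unstimulated KLF2- ones for Psmb6 and Psmb7. The plot of CPM by library shows these levels.

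**Figure D1:**
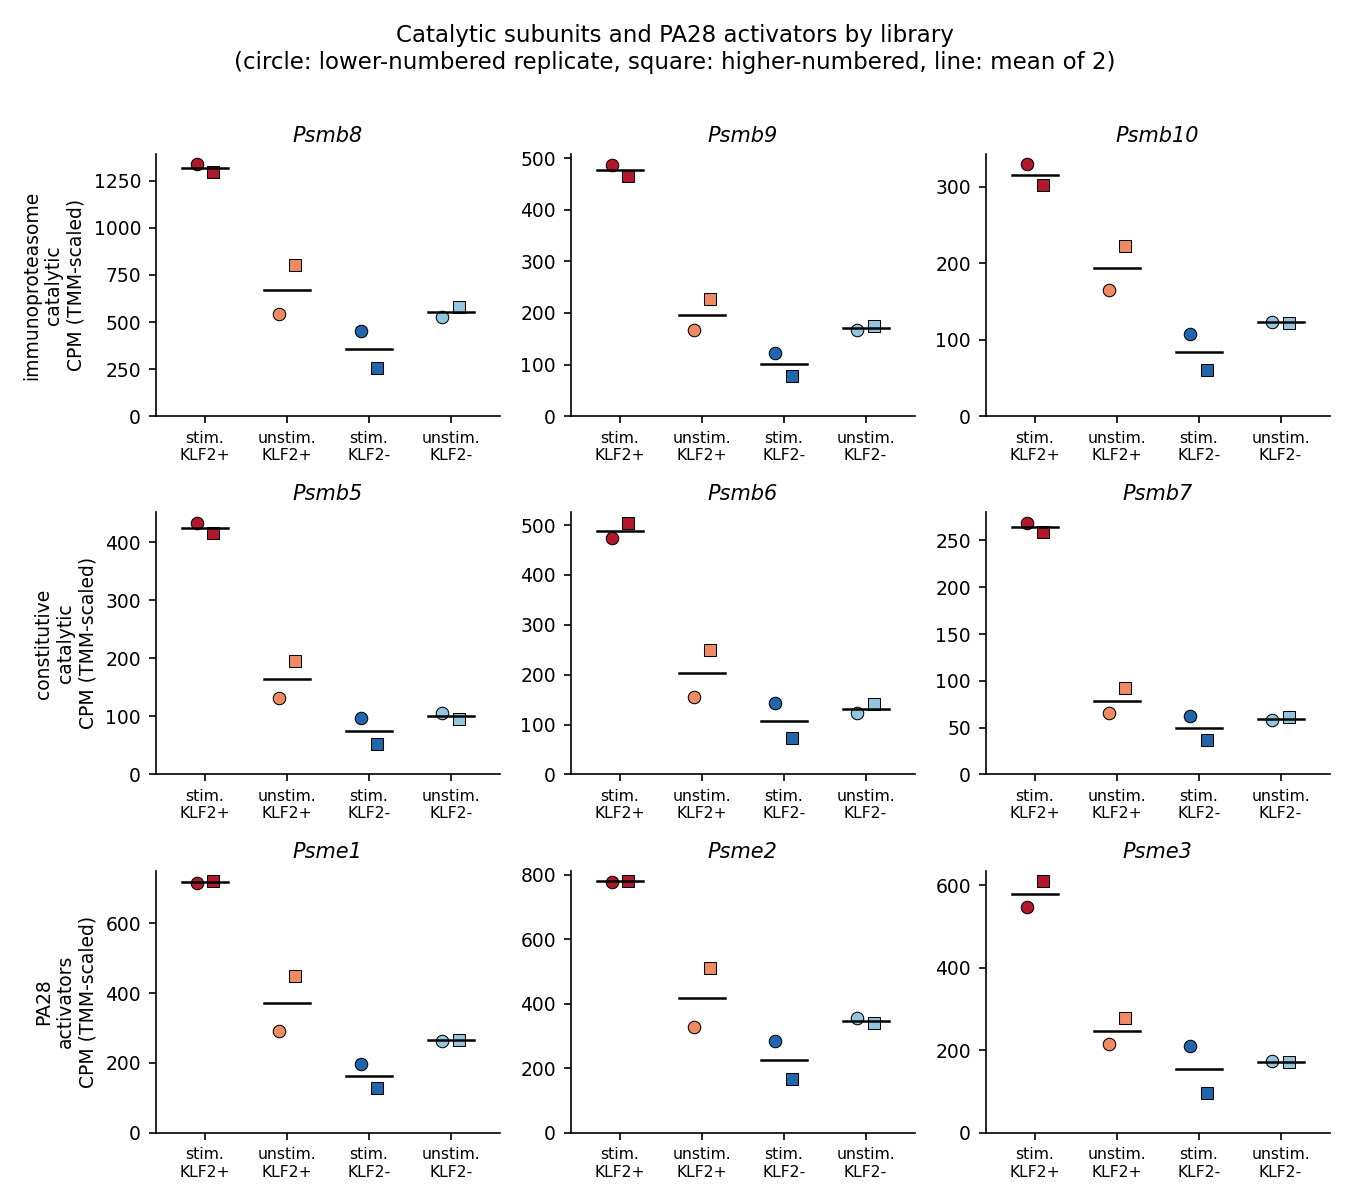
CPM of the immunoproteasome catalytic (top), constitutive catalytic (middle) and PA28 activator genes (bottom) in 8 libraries, with stimulated KLF2+, unstimulated KLF2+, stimulated KLF2- and unstimulated KLF2- cells from left to right (points, libraries; lines, mean of 2). The stimulated KLF2+ libraries are the highest in each panel, as for Psmb8 at 1338 and 1298 CPM, and replicate 4 (square) lies below replicate 3 among stimulated KLF2- libraries.

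The regions around the starts of 4 of the catalytic genes are shown, since these genes moved together and Psmb9 lies head to head with the peptide transporter gene Tap1. The starts of Psmb9 and Tap1 are 226 bases apart on opposite strands of chromosome 17, and Psmb8 lies beyond Tap1. Sequences are from RefSeq on GRCm38.p6, the build named mm10, on each gene's strand, from 250 bases before the start to 50 after it, and capitals mark the motif matches. They lie at chr17:34197945-34198244 for Psmb8, chr17:34187281-34187580 for Psmb9, chr14:54617946-54618245 for Psmb5 and chr11:70525107-70525406 for Psmb6.
Psmb8: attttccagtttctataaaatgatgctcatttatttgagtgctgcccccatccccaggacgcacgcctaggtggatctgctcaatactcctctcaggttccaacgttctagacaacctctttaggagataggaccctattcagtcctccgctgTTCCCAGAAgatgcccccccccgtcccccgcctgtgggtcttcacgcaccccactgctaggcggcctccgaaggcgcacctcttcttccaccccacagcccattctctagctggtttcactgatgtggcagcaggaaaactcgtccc
Psmb9: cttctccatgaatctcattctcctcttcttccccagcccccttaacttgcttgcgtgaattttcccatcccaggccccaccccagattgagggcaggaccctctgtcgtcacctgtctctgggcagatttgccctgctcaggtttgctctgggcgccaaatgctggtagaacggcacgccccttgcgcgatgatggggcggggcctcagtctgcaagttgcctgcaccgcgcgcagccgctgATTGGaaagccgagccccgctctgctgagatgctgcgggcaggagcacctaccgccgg
Psmb5: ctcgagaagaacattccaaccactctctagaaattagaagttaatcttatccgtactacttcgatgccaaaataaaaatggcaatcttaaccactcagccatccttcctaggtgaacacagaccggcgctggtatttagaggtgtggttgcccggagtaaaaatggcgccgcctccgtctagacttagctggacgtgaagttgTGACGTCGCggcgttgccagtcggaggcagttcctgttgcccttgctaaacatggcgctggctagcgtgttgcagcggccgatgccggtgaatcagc
Psmb6: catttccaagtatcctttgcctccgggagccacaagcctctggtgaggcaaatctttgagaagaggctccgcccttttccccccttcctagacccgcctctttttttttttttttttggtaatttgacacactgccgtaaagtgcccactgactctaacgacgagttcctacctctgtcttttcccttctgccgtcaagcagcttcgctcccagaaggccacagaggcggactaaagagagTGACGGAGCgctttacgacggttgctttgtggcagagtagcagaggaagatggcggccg
Motifs were searched on both strands: TGACNNNGC, the core of the antioxidant response element (ARE), CCAAT, the interferon-stimulated response element (ISRE), read as GAAA, NN and GAAA in a row, and the gamma-activated site (GAS) TTCNNNGAA. Psmb5 and Psmb6 each held the ARE core, 47 and 9 bases before the start. Psmb8 held a GAS 97 bases before its start, and Psmb9 held CCAAT, read on the opposite strand, 8 bases before its start. Of the 42 members matched in the promoter table, 6 (14.3%) held the ARE core, against 14.0% of 27025 genes. CCAAT was in 15 members (35.7%, against 41.1% of genes), the ISRE in 5 (11.9%, against 3.99%) and the GAS in 3 (7.14%, against 9.55%). The members with the ISRE were Psmb3, Psmd4, Psmd9, Psme1 and Psmg4, none of them an immunoproteasome catalytic gene. A match gives letters only, not a bound site.

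The first comparison asks how the members responded to 48 h of stimulus in KLF2+ cells. Most core and cap genes rose together, with a median log2 fold change of 1.30 over the 50 members, against -0.25 over all genes tested. Calls are those of edgeR's quasi-likelihood test at an adjusted p (Benjamini and Hochberg, over all genes tested) under 0.05. By this test 42 of 50 members were higher in stimulated than in unstimulated KLF2+ cells, against 19.7% of 19146 genes, and 0 were lower, against 17.4% of genes. After background correction 35 of 48 members were higher, against 12.7% of 15292 genes, and 1 was lower, against 16.4%, with a median of 0.84 over members and -0.24 over genes. With limma on log2(TPM + 1), which is scaled to the whole library, 31 members were higher and 1 lower, beside 1557 and 3112 genes. In bulk RNA, more transcript per cell and more cells of a kind cannot be told apart.

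Core and cap subunits rose nearly as a whole. Of the alpha ring, 7 of 8 genes rose, by 1.39 to 1.75 on the log2 scale (0.88 to 1.24 after correction), with Psma5 at 372 and 361 CPM in stimulated and 87.8 and 130 CPM in unstimulated KLF2+ cells. All 4 structural beta genes, all 6 ATPases and 10 of 11 non-ATPase genes rose before and after correction. The lid deubiquitinase gene Psmd14, with 506 and 505 CPM in stimulated and 115 and 183 CPM in unstimulated KLF2+ cells, had the largest log2 fold change of the true proteasome genes, 1.76 ± 0.31 (SE, n = 2 per group; edgeR adjusted p = 0.00433). Psmd4, whose product binds ubiquitin chains, was the non-ATPase gene that did not pass, with 372 and 386 CPM in stimulated and 199 and 311 CPM in unstimulated KLF2+ cells.

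In 2 of the 3 pairs the constitutive gene had a larger log2 fold change than its immunoproteasome partner, and Psmb6 and Psmb9 both had 1.27, though these differences between genes were not tested. Log2 fold changes were 1.37 ± 0.30 for Psmb5, 1.27 ± 0.33 for Psmb6 and 1.74 ± 0.27 for Psmb7 (SE, n = 2 per group; edgeR adjusted p = 0.00981, 0.018 and 0.0025). They were 0.97 ± 0.32 for Psmb8 and 1.27 ± 0.26 for Psmb9, which rose (edgeR adjusted p = 0.0384 and 0.00723), and 0.70 ± 0.28 for Psmb10, which did not pass (edgeR adjusted p = 0.0676). After background correction Psmb5, Psmb6 and Psmb7 rose by 0.86, 0.76 and 1.23 (edgeR adjusted p = 0.015, 0.0302 and 0.00438) and Psmb9 by 0.75 ± 0.13 (0.0082). Psmb8 then had 0.45 ± 0.16 (edgeR adjusted p = 0.0712) and Psmb10 0.18 ± 0.16 (0.41), and neither passed.

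Of the alternative caps, the PA28 gene Psme1 stood at 715 and 721 CPM in stimulated KLF2+, 292 and 450 CPM in unstimulated KLF2+, 197 and 128 CPM in stimulated KLF2-, and 263 and 266 CPM in unstimulated KLF2- libraries. Its PA28 partner Psme2 stood at 776 and 781 CPM, 326 and 509 CPM, 285 and 166 CPM, and 355 and 339 CPM in the same order. Psme3, whose product caps nuclear proteasomes, stood at 547 and 609 CPM in stimulated KLF2+, 216 and 278 CPM in unstimulated KLF2+, 211 and 95.8 CPM in stimulated KLF2-, and 175 and 171 CPM in unstimulated KLF2- libraries. In KLF2+ cells these 3 genes rose by 0.95 ± 0.28, 0.90 ± 0.31 and 1.23 ± 0.33 on the log2 scale (SE, n = 2 per group; edgeR adjusted p = 0.0279, 0.0442 and 0.0207). After background correction Psme1 rose by 0.44 ± 0.14 (edgeR adjusted p = 0.0479), while Psme2 (0.39, adjusted p = 0.107) and Psme3 (0.71, adjusted p = 0.0525) did not pass.

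The genes of PA200 and PI31 and the PA28 copy had smaller values. Psme4 stood at 47.1 and 52.0 CPM in stimulated KLF2+, 31.1 and 33.3 CPM in unstimulated KLF2+, 47.5 and 33.5 CPM in stimulated KLF2-, and 24.9 and 31.5 CPM in unstimulated KLF2- libraries. Psmf1 stood at 112 and 126 CPM, 63.3 and 98.6 CPM, 52.4 and 42.7 CPM, and 61.9 and 65.5 CPM in the same order. Their log2 fold changes in KLF2+ cells, 0.62 ± 0.23 and 0.56 ± 0.24, did not pass (SE, n = 2 per group; edgeR adjusted p = 0.0571 and 0.0823) and were -0.05 and -0.09 by limma on log2(TPM + 1). Psme2b had 77.9 and 76.2 CPM in stimulated against 93.5 and 92 CPM in unstimulated KLF2+ cells, the smallest log2 fold change among members averaging at least 10 CPM, -0.27 ± 0.18 (edgeR adjusted p = 0.232). It fell after background correction (-0.82 ± 0.22, edgeR adjusted p = 0.0327) and was the only member to do so there.

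Chaperone genes divided. All 4 of the 20S core rose before correction, by 1.05 to 1.56 on the log2 scale, and 1 of 4, Psmg3 (0.85, edgeR adjusted p = 0.029), after it. Of the 19S chaperones, Psmd9 and Psmd5 rose before correction and Psmd9 alone after it (0.86, edgeR adjusted p = 0.0377). Psmc3ip, which is no subunit, had the largest log2 fold change of the 50 genes, 2.43 ± 0.36 (SE, n = 2 per group; edgeR adjusted p = 0.0021), with 39.3 and 38.2 CPM in stimulated and 5.63 and 8.61 CPM in unstimulated KLF2+ cells.

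**Figure D2:**
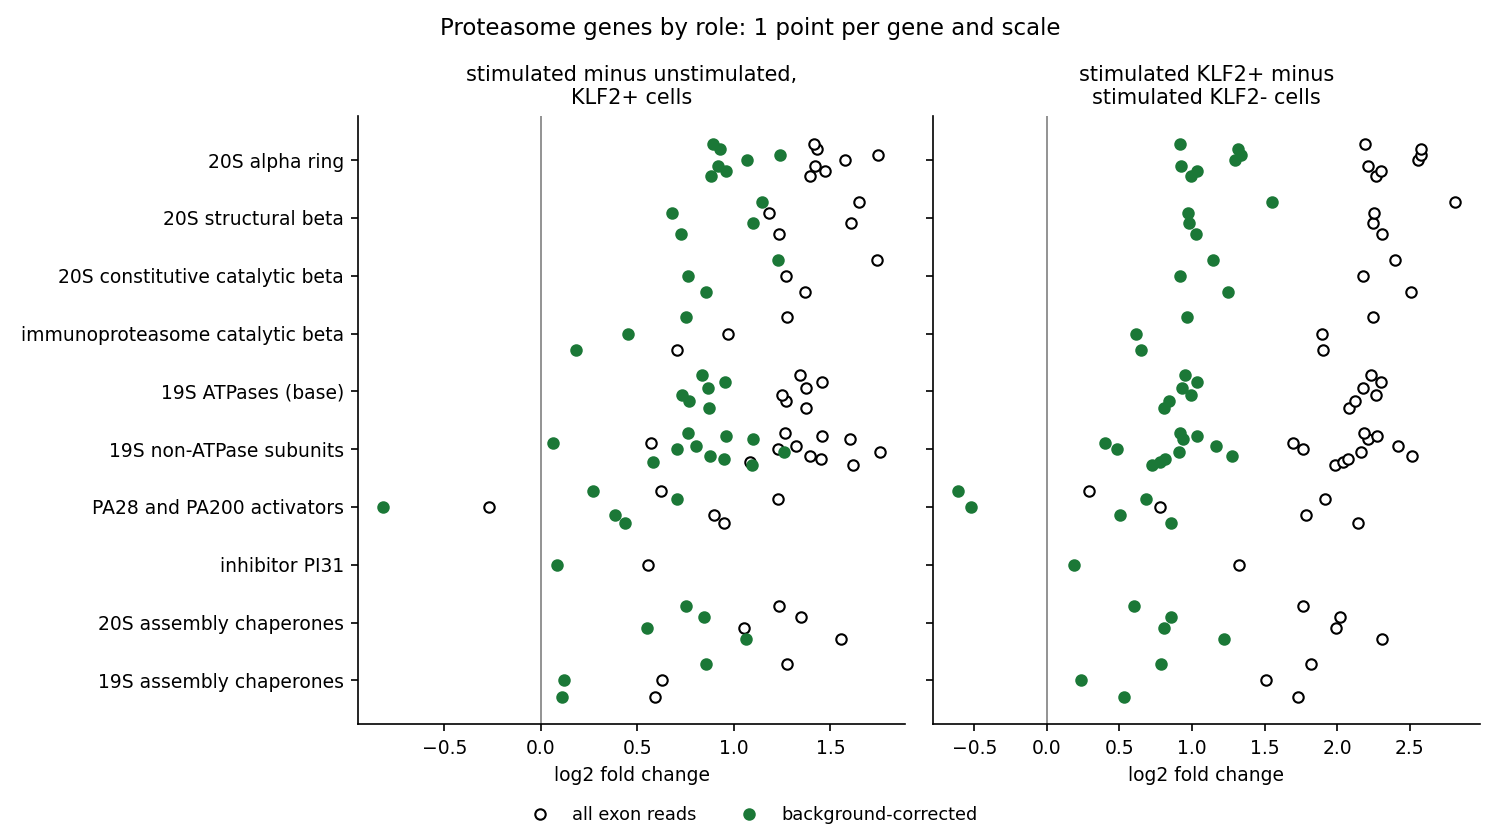
Log2 fold changes of 47 proteasome genes by role, stimulated over unstimulated KLF2+ cells (left) and stimulated KLF2+ over stimulated KLF2- cells (right), from all exon reads (open) and after background correction (filled), 1 point per gene and scale. The alpha ring lies between 1.39 and 1.75 on the left, and between 0.88 and 1.24 after correction, while immunoproteasome, activator and PI31 genes lie lower on the left.

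Markers of other cells moved with the same comparison. The 10 macrophage and monocyte markers summed to 48.4 and 85.9 CPM in stimulated and to 847 and 1616 CPM in unstimulated KLF2+ cells, 8 of 10 were lower, and Fcgr1 was at 0 in stimulated KLF2+ replicate 1. The 6 markers of dividing cells summed to 3881 and 3331 CPM in stimulated and to 294 and 314 CPM in unstimulated KLF2+ cells, and 6 of 6 were higher. Markers of dendritic cells (3 of 5 lower) and NK cells (2 of 3 lower) moved as well. Their part in the members' response was not tested. The libraries of a group did not overlap those of the other for 49 members, 47 above, against 35.2% of genes, and 2 (Psma8 and Psme2b) below, against 40.1%. After correction 44 of 48 were above, against 30.8% of genes, and 1 below, against 43.2%. The count of higher members was 13 of 50 without unstimulated KLF2+ replicate 1, where 1410 of 20255 genes were higher, and 28 without stimulated KLF2+ replicate 2, where 1850 of 20335 were. After correction it was 15 and 18 of 48 without these libraries, beside 670 of 15949 and 661 of 15872 genes. The members' median was 1.04 and 1.31 without them, and 0.76 and 0.91 after correction.

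Within a library, the balance between immunoproteasome and constitutive catalytic transcripts does not depend on scaling between libraries. Summed reads per kb of Psmb8, Psmb9 and Psmb10 over those of Psmb5, Psmb6 and Psmb7 gave ratios of 1.59 and 1.52 in stimulated KLF2+, 2.10 and 1.99 in unstimulated KLF2+, 1.93 and 2.11 in stimulated KLF2-, and 2.44 and 2.55 in unstimulated KLF2- libraries. Both stimulated KLF2+ libraries were lowest and both unstimulated KLF2- libraries highest, and the middle groups overlapped. On the log2 scale the ratios averaged 0.64 ± 0.04, 1.03 ± 0.06, 1.01 ± 0.09 and 1.32 ± 0.04 in the same order (SD, n = 2 each). As a score over members this ratio was given no test. In the deposited TPM, immunoproteasome genes made up 61.4% and 60.4% of the catalytic sum in stimulated KLF2+, 67.8% and 66.6% in unstimulated KLF2+, 65.9% and 67.8% in stimulated KLF2-, and 70.9% and 71.8% in unstimulated KLF2- libraries.

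The pairs that share a catalytic site differed in their ratios per kb. Psmb8 over Psmb5, the chymotrypsin-like pair, was 2.21 and 2.23 in stimulated KLF2+, 2.92 and 2.92 in unstimulated KLF2+, 3.34 and 3.49 in stimulated KLF2-, and 3.54 and 4.31 in unstimulated KLF2- libraries, with no overlap between these groups. Psmb9 over Psmb6 was 1.33 and 1.19, 1.37 and 1.18, 1.10 and 1.39, and 1.73 and 1.59 in the same order, so that only the unstimulated KLF2- libraries stood apart. Psmb10 over Psmb7, the trypsin-like pair, was 0.933 and 0.886 in stimulated KLF2+, 1.90 and 1.85 in unstimulated KLF2+, 1.30 and 1.25 in stimulated KLF2-, and 1.62 and 1.52 in unstimulated KLF2- libraries. In stimulated KLF2+ cells Psmb7 was thus the more abundant of that pair, and in the other 6 libraries Psmb10 was. After background correction each of these ratios differed from its uncorrected value by little, the summed ratio being 1.59 and 1.52 in stimulated KLF2+ and 2.45 and 2.56 in unstimulated KLF2- cells.

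**Figure D3:**
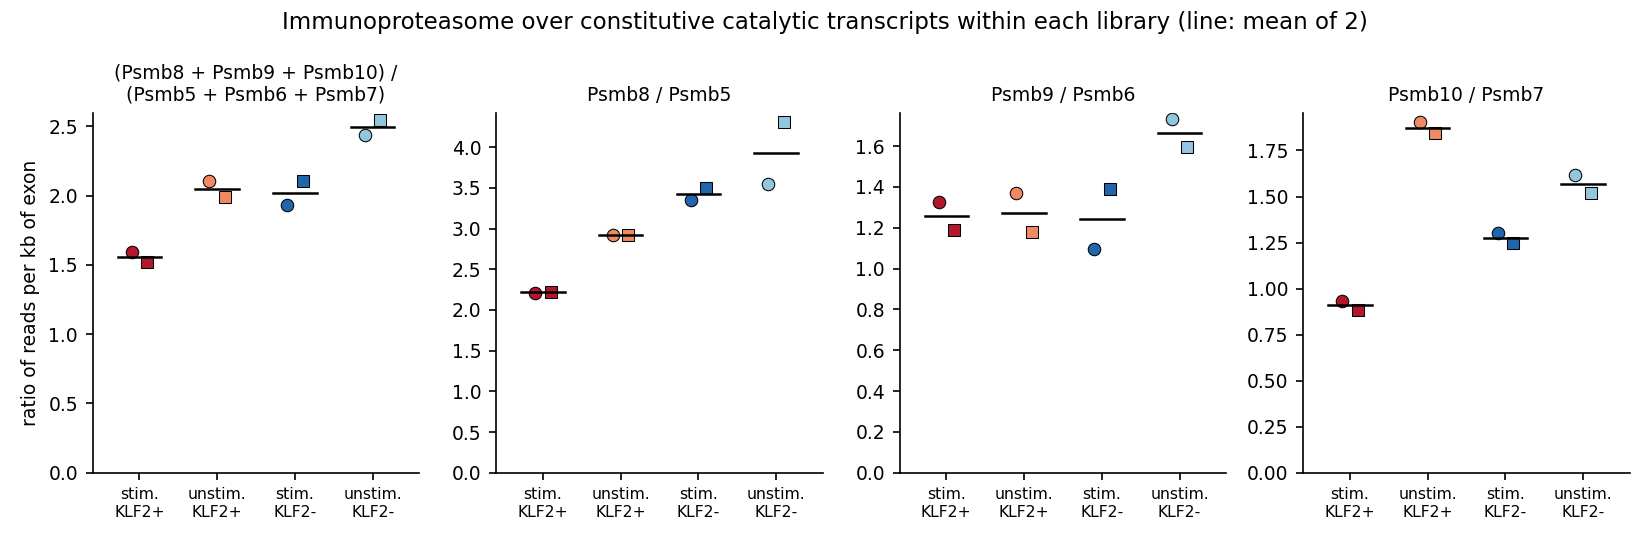
Ratios of reads per kb of exon within each library, for the summed immunoproteasome over the summed constitutive catalytic genes and for the 3 pairs, with stimulated KLF2+, unstimulated KLF2+, stimulated KLF2- and unstimulated KLF2- cells from left to right (points, libraries; lines, mean of 2). The summed ratio runs from 1.52 in a stimulated KLF2+ library to 2.55 in an unstimulated KLF2- library, and Psmb10 over Psmb7 is below 1 in stimulated KLF2+ cells only.

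The members together took 2.04% and 2.03% of the deposited TPM in stimulated KLF2+, 1.32% and 1.45% in unstimulated KLF2+, 1.42% and 1.06% in stimulated KLF2-, and 1.32% and 1.30% in unstimulated KLF2- libraries. The stimulated KLF2+ libraries were thus above all others, and those of stimulated KLF2- cells lay on both sides of the unstimulated KLF2- ones.

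The second comparison asks the same of KLF2- cells. By the same edgeR test, 0 of 50 members were higher in stimulated than in unstimulated KLF2- cells and 0 were lower, against 0% of genes in each direction. At an unadjusted p under 0.05, 0 members were higher and 6 lower, beside 574 and 2228 of 19146 genes. DESeq2 called 0 members, beside 47 higher and 27 lower genes of 19146. After background correction 0 of 48 members were called, against 0% of genes in each direction, and 3 were higher and 1 lower at an unadjusted p under 0.05, beside 1265 and 786 of 15292 genes. The median log2 fold change was -0.34 over members and 0.06 over genes, and 0.01 and 0.13 after correction. The members' median thus moved with the scale.

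Among the catalytic genes the estimates were -0.64 ± 0.32 for Psmb8, -0.76 ± 0.26 for Psmb9 and -0.54 ± 0.28 for Psmb10, and -0.44 ± 0.30 for Psmb5, -0.29 ± 0.33 for Psmb6 and -0.25 ± 0.27 for Psmb7 (SE, n = 2 per group; edgeR adjusted p from 0.275 for Psmb9 to 0.624 for Psmb6). After correction they were -0.23, -0.34 and -0.15 for the immunoproteasome genes and -0.04, 0.11 and 0.15 for the constitutive ones. Psmb9 and Psme1 (-0.70 ± 0.28, edgeR adjusted p = 0.313) had the smallest log2 fold changes among members averaging at least 10 CPM. Psme4 (0.53 ± 0.24, edgeR adjusted p = 0.342) had the largest, with both stimulated above both unstimulated libraries, followed by Psmg3 at 0.03 ± 0.27. Psme2, Psme3 and Psmf1 had -0.62 ± 0.31, -0.17 ± 0.33 and -0.42 ± 0.24.

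The stimulated KLF2- libraries differed between themselves. For most members replicate 4 held less than replicate 3, as for Psmb2, a structural beta gene, at 153 CPM in replicate 3 and 76.7 CPM in replicate 4, beside 133 and 131 CPM in unstimulated KLF2- cells. Without replicate 4 the members' median was -0.06 (0.17 after correction), and without replicate 3 it was -0.77 (-0.15 after correction). Markers of dividing cells summed to 783 and 183 CPM in the stimulated and 241 and 221 CPM in the unstimulated KLF2- libraries, and 0 of 6 were called. Macrophage markers summed to 28.4 and 49.7 CPM and to 31.4 and 29.3 CPM there, with C1qb at 0 in stimulated replicate 4 and Fcgr1 at 0 in replicate 3. The libraries did not overlap for 31 members, 3 above, against 31.2% of genes, and 28 below, against 30.2%. After correction they did not for 16 of 48, 9 above, against 32.1% of genes, and 7 below, against 17.5%.

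The third comparison sets the 2 stimulated populations side by side, and it gave the largest median of members. By the same edgeR test, 47 of 50 members were higher in stimulated KLF2+ than in stimulated KLF2- cells, against 35.5% of 19146 genes, and 2 were lower, against 39.7% of genes. After background correction 43 of 48 members were higher, against 16% of 15292 genes, and 0 were lower, against 38.6%. The median log2 fold change was 2.18 over members and -0.19 over genes, and 0.92 and -0.47 after correction. With the 50 CPM scaling alone, without subtraction, the medians were 1.02 over members and -1.39 over genes. With limma on log2(TPM + 1), 39 members were higher and 4 lower, beside 1791 and 12299 genes. The 2 lower members were Psma8 and Psmb11, whose reads were near or below background.

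The core and cap were higher throughout. The 7 somatic alpha genes were higher by 2.19 to 2.58 on the log2 scale (0.92 to 1.34 after correction), the 6 ATPases by 2.08 to 2.30 (0.81 to 1.03) and the 11 non-ATPase genes by 1.69 to 2.51 (0.40 to 1.27), and all of them passed in both fits. Psmb4, a structural beta gene with 350 and 338 CPM in stimulated KLF2+ and 58.2 and 39.6 CPM in stimulated KLF2- cells, had 2.81 ± 0.28 as its log2 fold change, the largest of the proteasome genes (SE, n = 2 per group; edgeR adjusted p = 0.000229). Psmc3ip was again above it (3.06 ± 0.38).

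The constitutive catalytic genes were higher by 2.51 ± 0.31 (Psmb5), 2.18 ± 0.34 (Psmb6) and 2.40 ± 0.28 (Psmb7), and the immunoproteasome genes by 1.89 ± 0.32 (Psmb8), 2.25 ± 0.27 (Psmb9) and 1.90 ± 0.29 (Psmb10), with edgeR adjusted p of at most 0.00085 (SE, n = 2 per group). After correction the values were 1.25, 0.92 and 1.15 for the constitutive genes and 0.61, 0.97 and 0.65 for Psmb8, Psmb9 and Psmb10, and all 6 passed (edgeR adjusted p of at most 0.0171). Psme1, Psme2 and Psme3 were higher by 2.14 ± 0.29, 1.79 ± 0.31 and 1.91 ± 0.34 (0.86, 0.51 and 0.68 after correction, edgeR adjusted p = 0.00286, 0.0332 and 0.0374). Psmf1 was higher by 1.32 ± 0.24 (edgeR adjusted p = 0.00115), but had 0.18 ± 0.16 after correction (adjusted p = 0.348) and -0.11 by limma on log2(TPM + 1). Psme2b was higher by 0.78 ± 0.18 (edgeR adjusted p = 0.00384), with -0.52 ± 0.23 after correction (adjusted p = 0.0869). Psme4 did not pass on either scale, with 0.29 ± 0.23 (edgeR adjusted p = 0.277) and -0.61 ± 0.25 after correction (adjusted p = 0.066).

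Both stimulated KLF2+ libraries were above both stimulated KLF2- libraries for 47 of 50 members, against 43.2% of genes, and both were below for 2, against 47.2%. After correction they were above for 46 of 48 members, against 29.7% of genes, and below for 2, against 51.1%. Without stimulated KLF2- replicate 4 the members' median was 1.85 (0.73 after correction), beside -0.12 over all genes (-0.33 after correction). Macrophage markers summed to 48.4 and 85.9 CPM in stimulated KLF2+ and 28.4 and 49.7 CPM in stimulated KLF2- cells, with 2 of 10 higher and 4 lower. Markers of dividing cells summed to 3881 and 3331 CPM in stimulated KLF2+ and 783 and 183 CPM in stimulated KLF2- cells, with 6 of 6 higher. B cell markers summed to 171 and 231 CPM and to 52.3 and 108 CPM, with 4 of 7 higher, and of the dendritic cell markers 1 of 5 was higher and 4 were lower. The T cell markers themselves summed to 6755 and 7132 CPM in stimulated KLF2+ and 2699 and 2620 CPM in stimulated KLF2- cells, with 8 of 8 higher (2 higher and 1 lower after correction). The part of these cells and markers in the members' difference was not tested, and exon read depth differed in the same direction as the groups.

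**Figure D4:**
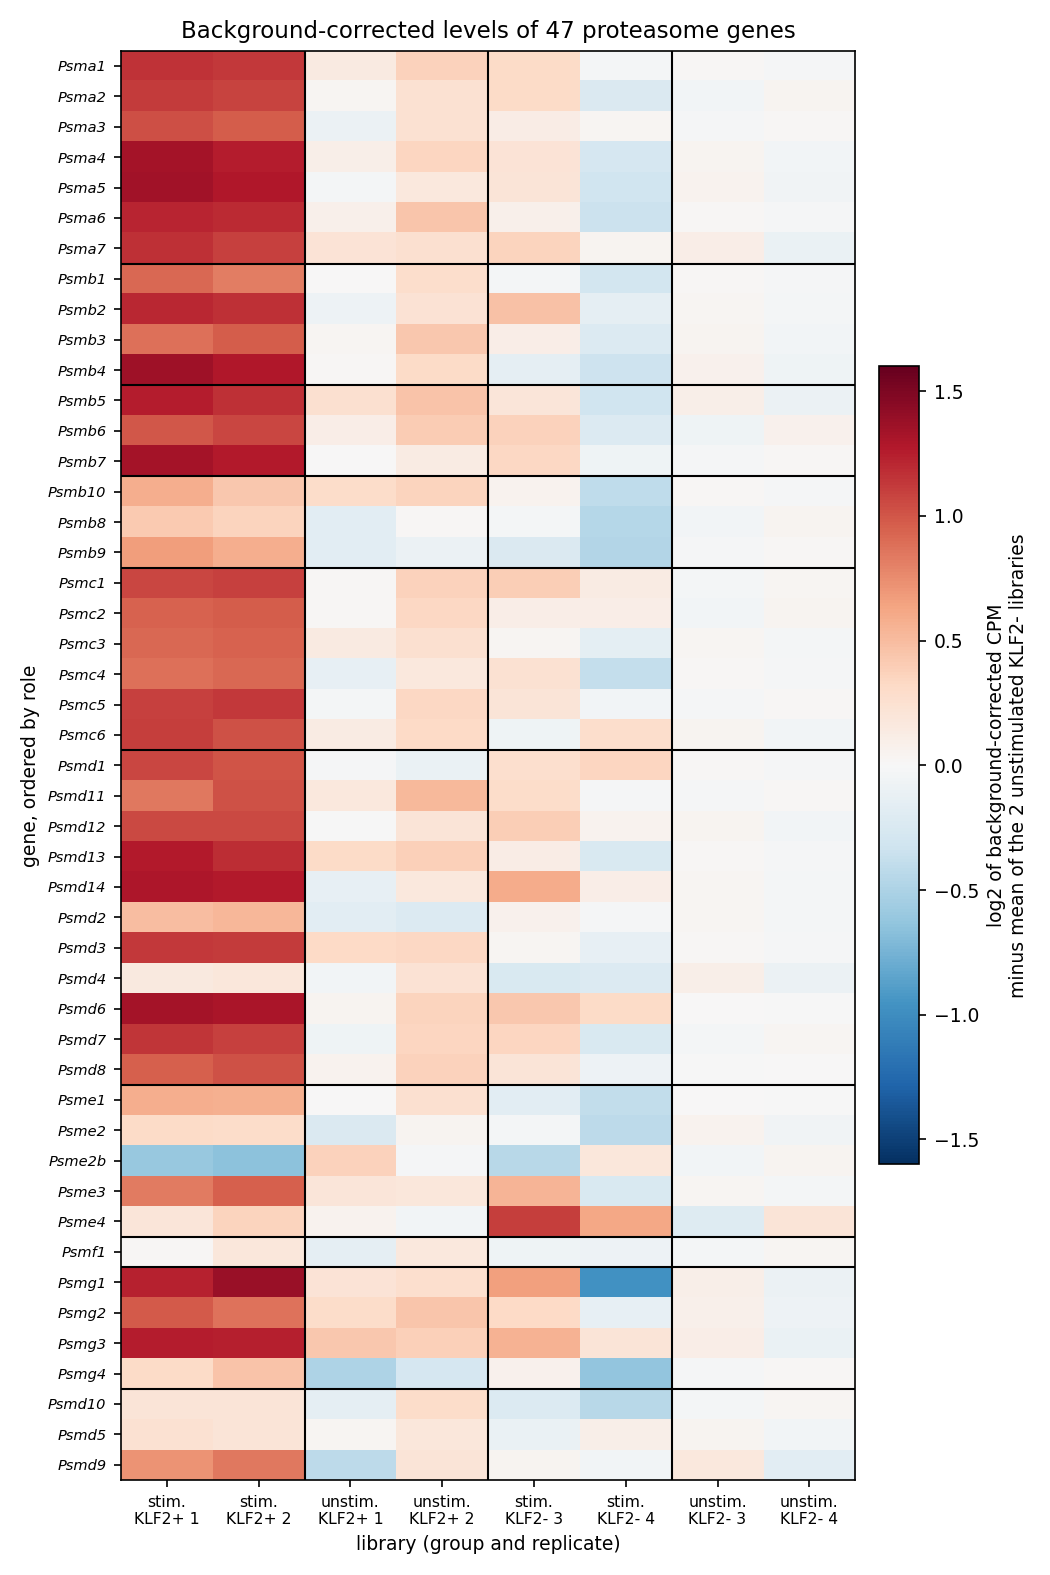
Background-corrected CPM of 47 proteasome genes (rows, by role) in 8 libraries (columns), as log2 differences from the mean of the 2 unstimulated KLF2- libraries, with values from -0.97 to 1.38. The 2 stimulated KLF2+ columns are raised for most rows, while Psme2b is lowered there and Psme4 is raised in the 2 stimulated KLF2- columns.

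The fourth comparison asks whether the unstimulated populations differed. By the same edgeR test, 0 of 50 members were higher in unstimulated KLF2+ than in unstimulated KLF2- cells, against 1.07% of genes, and 0 were lower, against 1.25%. After correction 0 of 48 were higher, against 0.974% of genes, and 0 lower, against 3.05%. At an unadjusted p under 0.05, 9 members were higher and 0 lower, beside 1854 and 1818 genes of 19146. DESeq2 called 0 members, beside 665 higher and 483 lower genes. The median was 0.50 over members and -0.11 over genes, and 0.17 and -0.21 after correction.

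Psmd11, a lid scaffold gene, had 172 and 283 CPM in unstimulated KLF2+ and 136 and 144 CPM in unstimulated KLF2- cells, and Psmb5 and it had the largest log2 fold changes, 0.70 ± 0.30 each (SE, n = 2 per group; edgeR adjusted p = 0.241 for Psmd11 and 0.245 for Psmb5). Psmb10 had 0.66 ± 0.28, Psmb6 0.62 ± 0.33 and Psmb7 0.40 ± 0.26, while Psmb8 and Psmb9 had 0.28 ± 0.31 and 0.21 ± 0.26, and -0.07 and -0.13 after correction. Psme1, Psme2 and Psme3 had 0.49, 0.27 and 0.52, Psme4 0.19 and Psmf1 0.35. The smallest among members averaging at least 10 CPM were Psmg4, a core chaperone gene, at -0.03 ± 0.35 and Psmd2, a scaffold gene of the cap, at 0.14 ± 0.24. Macrophage markers summed to 847 and 1616 CPM in unstimulated KLF2+ and 31.4 and 29.3 CPM in unstimulated KLF2- cells, with 4 of 10 higher, and those of dividing cells to 294 and 314 CPM and 241 and 221 CPM. The KLF2+ libraries were above the KLF2- ones for 37 of 50 members, against 26.2% of genes, and below for 1, against 32.8%. After correction they were above for 19 of 48, against 18.2% of genes, and below for 3, against 42.1%.

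The last comparison sets the response of KLF2+ cells against that of KLF2- cells, as an interaction term over the 8 libraries, the same libraries as in the comparisons already given. By the same edgeR test, 46 of 50 members had a larger response in KLF2+ cells, against 20.3% of genes, and 0 a smaller one, against 15.5%. After background correction 14 of 48 were larger, against 3.58% of genes, and 0 smaller, against 8.24%. The median difference in response was 1.65 on the log2 scale over members and -0.09 over genes, and 0.73 and -0.24 after correction. With limma on log2(TPM + 1), 20 were larger and 1 smaller, beside 813 and 4808 genes.

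The 14 that passed after correction held 4 alpha genes, Psma3, Psma4, Psma5 and Psma6. They also held the beta genes Psmb1, Psmb4, Psmb7 and Psmb9, and the cap genes Psmc3, Psmc5, Psmd1, Psmd2, Psmd3 and Psmd13. These calls depended on single libraries, and leaving out a single library could remove all 14. The members' median after correction ran from 0.60 to 0.90 when single libraries were left out. Psmb4 had the largest difference of the proteasome genes, 2.29 ± 0.38 (SE, n = 2 per group; edgeR adjusted p = 0.0119) and 1.38 ± 0.21 after correction (adjusted p = 0.0329), below Psmc3ip at 2.66 ± 0.52. Differences were 1.81 ± 0.43, 1.56 ± 0.46 and 1.99 ± 0.38 for Psmb5, Psmb6 and Psmb7, and 1.61 ± 0.45, 2.04 ± 0.36 and 1.25 ± 0.39 for Psmb8, Psmb9 and Psmb10 (SE, n = 2 per group; edgeR adjusted p from 0.0138 for Psmb9 to 0.0376 for Psmb10). After correction they were 0.89, 0.65 and 1.08 for the constitutive genes and 0.68, 1.10 and 0.33 for the immunoproteasome genes, where Psmb7 and Psmb9 passed (edgeR adjusted p = 0.0376 and 0.0346).

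Psme1, Psme2 and Psme3 had differences of 1.65 ± 0.40, 1.52 ± 0.43 and 1.40 ± 0.47 (edgeR adjusted p = 0.0211, 0.0289 and 0.0433), and none of these 3 passed after correction (0.0524, 0.112 and 0.293). Psmf1 had 0.98 ± 0.34 (edgeR adjusted p = 0.0474), with 0.16 after correction (adjusted p = 0.635) and -0.06 by limma on log2(TPM + 1). Psme4 (0.10 ± 0.33) and Psme2b (0.29 ± 0.25) did not pass. The count of 46 changed when single libraries were left out, while the members' median moved less. Without unstimulated KLF2- replicate 3 or 4 the count was 0 in either fit, beside 67 of 20230 and 64 of 20228 genes, with medians of 1.68 and 1.70. With unstimulated KLF2+ replicate 1 left out it was 3, beside 332 of 20255 genes, with a median of 1.37. With stimulated KLF2+ replicate 2 left out it was 17, beside 1146 of 20335 genes, with a median of 1.65. Without stimulated KLF2- replicate 4 the median was 1.39, and 0.60 after correction.

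Markers of other cells differed in the same comparison. Of the 10 macrophage and monocyte markers 7 had a smaller response in KLF2+ cells and 0 a larger one, with a median difference of -4.84 on the log2 scale. Of the 6 markers of dividing cells 5 had a larger response and 0 a smaller one, with a median difference of 2.63 (1 larger and a median of 1.79 after correction). Their part in the members' difference in response was not tested.

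Genes that work with the proteasome but carry other symbols were read from 4 lists. Of 10 partners, 9 rose in stimulated against unstimulated KLF2+ cells, against 19.7% of all genes tested, with a median log2 fold change of 1.16. After correction 6 rose, against 12.7% of genes. In stimulated KLF2+ against stimulated KLF2- cells 10 were higher, against 35.5% of genes. After correction 7 were higher there, against 16%, and 1 lower, against 38.6%. The core assembly factor Pomp, the most abundant of them in reads, had 451 and 449 CPM in stimulated and 109 and 159 CPM in unstimulated KLF2+ cells, and rose by 1.75 ± 0.33 on the log2 scale (SE, n = 2 per group; edgeR adjusted p = 0.00536). The cap deubiquitinase gene Usp14 had 313 and 284 CPM in stimulated and 102 and 130 CPM in unstimulated KLF2+ cells, and rose by 1.36 ± 0.21 (edgeR adjusted p = 0.00259). Neither the partners nor any of the other 3 lists held a called gene in stimulated against unstimulated KLF2- cells or between the unstimulated populations.

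Known regulators of proteasome genes moved less. Of 6, Ddi2, the protease gene that activates the factor encoded by Nfe2l1, rose in KLF2+ cells by 0.71 ± 0.19 (edgeR adjusted p = 0.0195), with 76.9 and 75.1 CPM in stimulated and 45.3 and 47.7 CPM in unstimulated cells, and had 0.23 after correction (adjusted p = 0.467). Nfe2l2, an activator of antioxidant genes, fell by 0.53 on the log2 scale (SE 0.19, edgeR adjusted p = 0.0484) and by 1.06 after correction (adjusted p = 0.00446). Nfe2l1, whose product raises proteasome genes when degradation is blocked, had 0.35 ± 0.19 (edgeR adjusted p = 0.154). Irf1 (0.42 ± 0.22), which carries interferon signals to the immunoproteasome genes, and Nlrc5 (0.01 ± 0.20), an activator of MHC class I genes, did not pass in KLF2+ cells.

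Of 15 genes that supply or shuttle ubiquitin, 9 rose in KLF2+ cells, against 19.7% of genes (4 after correction, against 12.7%). Uba1, the ubiquitin-activating enzyme gene, had 880 and 867 CPM in stimulated and 360 and 389 CPM in unstimulated cells. It rose by 1.22 ± 0.25 (SE, n = 2 per group, edgeR adjusted p = 0.00761). Of 10 genes that load peptides on MHC class I, 4 rose, against 19.7% of genes (3 after correction, against 12.7%). They were Tap1, Calr, Canx and Pdia3, where Calr, Canx and Pdia3 encode general chaperones of the endoplasmic reticulum and Tap1 is the transporter gene beside Psmb9. Canx, which had the smallest p of the list, rose by 1.31 ± 0.26 (edgeR adjusted p = 0.00638), with 1028 and 962 CPM in stimulated and 404 and 398 CPM in unstimulated KLF2+ cells. Tap1 had 746 and 698 CPM in stimulated and 378 and 417 CPM in unstimulated KLF2+ cells, and rose by 0.86 ± 0.26 (edgeR adjusted p = 0.0316), with 0.32 after correction (adjusted p = 0.148). B2m, the light chain of MHC class I, had 0.60 ± 0.37 (edgeR adjusted p = 0.199). In stimulated KLF2+ against stimulated KLF2- cells 10 of 10 of these loading genes were higher, against 35.5% of genes. After correction 2 of 10 were, near the 16% of all genes.

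Between the stimulated populations Akirin2, which guides proteasomes into the nucleus, had the smallest p among the partners (2.05 ± 0.23, edgeR adjusted p = 0.000268, and 0.85 after correction). Among the regulators, 4 of 6 were higher in stimulated KLF2+ cells, against 35.5% of genes, led by Irf1 at 1.44 ± 0.22 (edgeR adjusted p = 0.000538). After correction 0 regulators were higher, against 16% of genes, and 2 lower, against 38.6%. Of the ubiquitin genes 12 of 15 were higher, and 3 higher and 2 lower after correction, beside the same shares of genes. Erap1, the peptide trimming enzyme of the loading list, was higher by 1.53 ± 0.23 (edgeR adjusted p = 0.000467), with 0.37 after correction (adjusted p = 0.0632). The response was larger in KLF2+ cells for 8 partners, 3 regulators, 9 ubiquitin genes and 7 loading genes, against 20.3% of all genes. After correction it was larger for 1 partner and no gene of the other lists, against 3.58% of genes. It was then smaller for 1 regulator, against 8.24%.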

How the data were processed

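RNA-seq libraries (SMARTer stranded pico kit, per the labels) were aligned to mm10 with STAR 2.7.9 and counted over exons with HOMER 4.11, and SAMtools and DESeq2 were also used, per the submitters' processing notes. How strand was handled is not given in the sources used here. The authors deposited a table of estimated counts per gene, in steps of 0.5 per the file headers and values, and a table of TPM (transcripts per M, scaled within each library by the authors). Columns of other samples numbered 0. Estimated counts were rounded and fitted with edgeR 4.0.16 in R 4.3.3 (filterByExpr, TMM, quasi-likelihood, 4 groups of 2 libraries in 1 fit), with p-values adjusted over all 19146 genes tested and called under 0.05. Background was the read density over 1464 receptor genes (1683.9 kb of exon), subtracted per gene and library. Alternatives used DESeq2 1.42.0, limma 3.58.1 on log2(TPM + 1) or log2(TPM + 0.1), other filters and scalings, a replicate block, and each library left out. Fits after background correction without each library were chosen after seeing the data. Named members were the catalytic beta genes, Psme1 to Psme4, Psmf1 and, among members averaging at least 10 CPM, the 2 largest and 2 smallest log2 fold changes of each comparison, the most and least abundant member of each role, and the called gene with the smallest p of each list. Some list genes are not reported here. Others were named as examples after their values were seen. Members and lists were chosen with earlier results of these data known. Promoters are from RefSeq (42 of 50 members matched).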

Additional observations from a re-analysis of the deposited data

Results flagged for a closer look

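In the interaction term over the 8 libraries, edgeR called 46 of 50 members with a larger response in KLF2+ than in KLF2- cells. Of 19146 genes tested 20.3% were called in that direction. The log2 differences in response were 1.61 for Psmb8, 2.04 for Psmb9 and 1.25 for Psmb10, and 1.81 for Psmb5, 1.56 for Psmb6 and 1.99 for Psmb7. They were 1.65 for Psme1, 1.52 for Psme2 and 1.40 for Psme3 of the PA28 activators, and 0.98 for Psmf1. The count was 14 of 48 after background correction, beside 547 of 15292 genes. Without unstimulated KLF2- replicate 3 or 4 it was 0 in either fit, beside 67 and 64 genes in all, while the members' median difference was 1.68 and 1.70, in place of 1.65. In the same term 7 of 10 macrophage and monocyte markers had a smaller response (median -4.84) and 5 of 6 markers of dividing cells a larger one (median 2.63), and their part was not tested. With 2 libraries per group, no single library could be tested for standing far from the others of its group.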

How the results depend on the processing

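The direction and the call, or its absence, held in 926 of 1182 comparisons of a named gene's result with an alternative, over 68 results. The call was lost in 144 and gained in 15, and 97 turned sign. Of the 926, 195 were in stimulated against unstimulated KLF2- cells and 198 between the unstimulated populations, where no member was called. In the difference in response 128 held, 93 lost the call and 17 turned sign. The cause of these changes was not tested. In stimulated against unstimulated KLF2+ cells, higher members numbered 22 by limma without a filter and 13 to 46 when single libraries were left out (15 to 41 after background correction, with 13 and 15 without unstimulated replicate 1 and 18 after correction without stimulated replicate 2). Lower members numbered 1 by limma at either pseudocount, beside 3112 (pseudocount 1) and 6069 (0.1) of 19146 genes. Without a filter there was 1, beside 1782 of 25124. When scaled on the genes of at least 50 CPM there was 1, beside 5667 of 19146. After background correction there was 1, beside 2510 of 15292. In stimulated KLF2+ against KLF2- cells, lower members numbered 4 in each of the 3 limma fits. Lower genes numbered 12299 and 12433 of 19146 at pseudocounts of 1 and 0.1, and 13351 of 25124 without a filter. After background correction 0 members were lower, beside 5897 of 15292 genes. Without single libraries the members' median ran from 1.85 to 2.58, and from 0.73 to 1.07 after correction. In unstimulated KLF2+ against KLF2- cells the members' median ran from 0.15 to 0.83 without single libraries, and from 0.02 to 0.28 after correction. For the difference in response, members with a larger response numbered 20 and 22 by limma at pseudocounts of 1 and 0.1, 0 without a filter, 14 after background correction and 0 to 46 without single libraries (0 to 37 after correction, with 37 without stimulated KLF2- replicate 3 and 2 without stimulated KLF2+ replicate 1). Members with a smaller response numbered 1 by limma at either pseudocount, beside 4808 (pseudocount 1) and 5493 (0.1) of 19146 genes. They numbered 1 too with the 50 CPM scaling and under the replicate block, beside 5102 and 5820 of 19146 genes. The mean of the 3 pair log2 ratios was 0.45 in stimulated KLF2+, 0.93 in unstimulated KLF2+, 0.81 in stimulated KLF2- and 1.12 in unstimulated KLF2- cells, in place of 0.64, 1.03, 1.01 and 1.32. Log2 fold changes turned sign, with limma on log2(TPM + 1), with or without the filter on low values, for Psme4 (-0.052) and Psmf1 (-0.089) in stimulated against unstimulated KLF2+ cells, Psmb6 (0.020), Psmb7 (0.089) and Psme3 (0.11) in stimulated against unstimulated KLF2- cells, Psme4 (-0.99), Psmf1 (-0.11) and Psme2b (-0.65) in stimulated KLF2+ against KLF2- cells, Psmb8 (-0.11), Psmb9 (-0.17), Psme2 (-0.13), Psme4 (-0.14), Psmf1 (-0.050) and Psmd2 (-0.23) in unstimulated KLF2+ against KLF2- cells and Psme4 (-0.85), Psmf1 (-0.055) and Psme2b (-0.77) in the difference in response. With a pseudocount of 0.1 the values were Psme4 (-0.060) and Psmf1 (-0.093) in stimulated against unstimulated KLF2+ cells, Psmb6 (0.020), Psmb7 (0.090) and Psme3 (0.11) in stimulated against unstimulated KLF2- cells, Psme4 (-1.11), Psmf1 (-0.11) and Psme2b (-0.65) in stimulated KLF2+ against KLF2- cells, Psmb8 (-0.11), Psmb9 (-0.17), Psme2 (-0.13), Psme4 (-0.16), Psmf1 (-0.052) and Psmd2 (-0.23) in unstimulated KLF2+ against KLF2- cells and Psme4 (-0.95), Psmf1 (-0.058) and Psme2b (-0.78) in the difference in response. Scaled on the genes of at least 50 CPM, signs turned for Psmb6 (0.057), Psmb7 (0.11) and Psme3 (0.17) in stimulated against unstimulated KLF2- cells, Psme4 (-0.89) and Psme2b (-0.43) in stimulated KLF2+ against KLF2- cells, Psmb8 (-0.043), Psmb9 (-0.11), Psme2 (-0.062), Psme4 (-0.11) and Psmd2 (-0.17) in unstimulated KLF2+ against KLF2- cells and Psme4 (-0.78) and Psme2b (-0.63) in the difference in response. After background correction they did so for Psmb6 (0.11), Psmb7 (0.15) and Psme3 (0.21) in stimulated against unstimulated KLF2- cells, Psme4 (-0.61) and Psme2b (-0.52) in stimulated KLF2+ against KLF2- cells, Psmb8 (-0.068), Psmb9 (-0.13), Psme2 (-0.088), Psme4 (-0.0086) and Psmd2 (-0.19) in unstimulated KLF2+ against KLF2- cells and Psme4 (-0.61) and Psme2b (-0.71) in the difference in response. DESeq2 gave Psmg4 (0.086) in unstimulated KLF2+ against KLF2- cells and Psme4 (-0.0019) in the difference in response, its size factors in edgeR Psmg4 (0.086) in unstimulated KLF2+ against KLF2- cells and Psme4 (-0.0016) in the difference in response, no filter on low counts Psmg4 (0.018) in unstimulated KLF2+ against KLF2- cells, and the replicate block Psmg3 (-0.0042) in stimulated against unstimulated KLF2- cells. Leaving out single libraries moved Psmb6 from -0.91 to 0.11, Psmb7 from -0.73 to 0.075, Psme3 from -0.89 to 0.28 and Psmg3 from -0.39 to 0.31 in stimulated against unstimulated KLF2- cells, Psmb8 from -0.031 to 0.61, Psmb9 from -0.032 to 0.49, Psme2 from -0.089 to 0.62, Psmf1 from -0.0081 to 0.70, Psmg4 from -0.34 to 0.28 and Psmd2 from -0.025 to 0.36 in unstimulated KLF2+ against KLF2- cells, Psme4 from -0.12 to 0.43 in the difference in response. The replicate numbers are shared within a population only, and same-numbered libraries deviated together (correlations of 0.66 in KLF2+ and 0.29 in KLF2- cells over 10395 genes), which with 2 pairs each does not show pairing. With the replicate block 46 members were higher in stimulated against unstimulated KLF2+ cells, where 4674 of 19146 genes were higher and 6177 lower. In KLF2- cells 0 members were called under that block, where 311 genes were higher and 459 lower. The 50 CPM scaling moved the median of all genes from -0.25 to -0.75 in stimulated against unstimulated KLF2+ cells. In stimulated KLF2+ against KLF2- cells it moved from -0.19 to -1.39. Under that scaling, without subtraction, the members' median was 0.82 in stimulated against unstimulated KLF2+ and 0.02 in stimulated against unstimulated KLF2- cells. It was 1.02 in stimulated and 0.18 in unstimulated KLF2+ against KLF2- cells, and 0.81 in the difference in response. After background correction these medians were 0.84, 0.01, 0.92, 0.17 and 0.73 in the same order. Most of their shift after correction thus appeared with the scaling alone.

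With 2 libraries per group and 4 residual degrees of freedom, the spread of each gene is known poorly, and leaving out a library leaves a lone one assumed to vary like the other groups. Exon reads of the stimulated KLF2- libraries were the fewest, with the highest background share, and the part of depth in the lack of calls in KLF2- cells was not tested. Counts come from reads without molecular identifiers, and reads over overlapping or copied genes cannot be assigned with certainty.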
